A study of Gallus gallus with 2 samples.

Results

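The transcripts described here are the 1211 long non-coding RNAs (lncRNAs) that lie on chromosomes 17, 18, 19 and 20 of the chicken, out of 21993 listed in a table of breast muscle lncRNAs. They were chosen by chromosome name alone, without scaffolds of uncertain position, so the rule uses no measured value. Earlier results of these data were known when it was set. Chromosome 17 held 268 of them, chromosome 18 held 221, chromosome 19 held 412 and chromosome 20 held 310.

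The muscle came from hens at 7 weeks of age. One group was White Recessive Rock (WRR), a strain labelled fast-growing, with a body weight of 625.3 ± 12.0 g. The other was Xing Hua (XH), a native Chinese strain labelled slow-growing, with a body weight of 328.5 ± 10.6 g (the kind of error is not named in the labels). Within a strain, RNA of 4 birds of average weight was mixed equally, freed of ribosomal RNA and made into 1 strand-marked library for an Illumina HiSeq instrument. Both strains were kept in the same space, in separate cages, on the same feed. Pooling removes the spread between birds, so there was no replicate, no test between strains and no p-value. Each difference given here is a difference between 2 pooled libraries, and the strain, its growth and its cage cannot be told apart. Named marker genes of muscle or of other cells are not part of this table, so the labelled tissue was not checked against them.

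Microchromosomes are the small chromosomes of birds. They carry more genes per length, more G and C bases and shorter introns than the large chromosomes, and they recombine more often. lncRNAs are long transcripts without a recognised protein product. Many are scarce and restricted to a tissue, and in muscle several are known to act in the formation and growth of fibres. The listed transcripts carry no gene name, strand, exon structure or sequence, so each is named by its interval (galGal4, counted from 1) and no role is given for it.

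Chromosome 19 had the densest set of listed lncRNAs of the 28 numbered autosomes, with 41.3 transcripts per Mb. Chromosome 17 had 25.6 per Mb (rank 11), chromosome 20 had 21.7 (rank 17) and chromosome 18 had 19.7 (rank 20). Together the 4 chromosomes had 26.3 per Mb, beside 23.1 on chromosomes 11 to 15, 24.6 on chromosome 16 and chromosomes 21 to 28, and 19.8 on chromosomes 1 to 5. Chromosomes 17, 18 and 20 thus lay in the middle or lower part of the order and chromosome 19 at its top. The listed intervals covered 8.33% of chromosome 19, but 3.40% of chromosome 17, 3.55% of chromosome 18 and 2.60% of chromosome 20. The median distance from one transcript to the next was 635 bases on chromosome 19, against 2047 on chromosome 17, 2284 on chromosome 18 and 2754 on chromosome 20.

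Transcripts were crowded in some stretches and absent from others. A chain is used here for a run of transcripts with gaps under 5 kb. On chromosome 19, 58.5% of the members lay in chains of 5 or more, against 34.7% on chromosome 17, 30.8% on chromosome 18 and 21.9% on chromosome 20. The share in the whole table was 45.1%. The longest stretch with no listed transcript was on chromosome 17, from 3316949 to 4753187. Chromosome 18 was empty from 776085 to 1700234, chromosome 20 from 4158768 to 5131236 and chromosome 19 from 2010142 to 2621413. Each chromosome thus had crowded windows beside nearly empty ones.

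**Figure D1:**
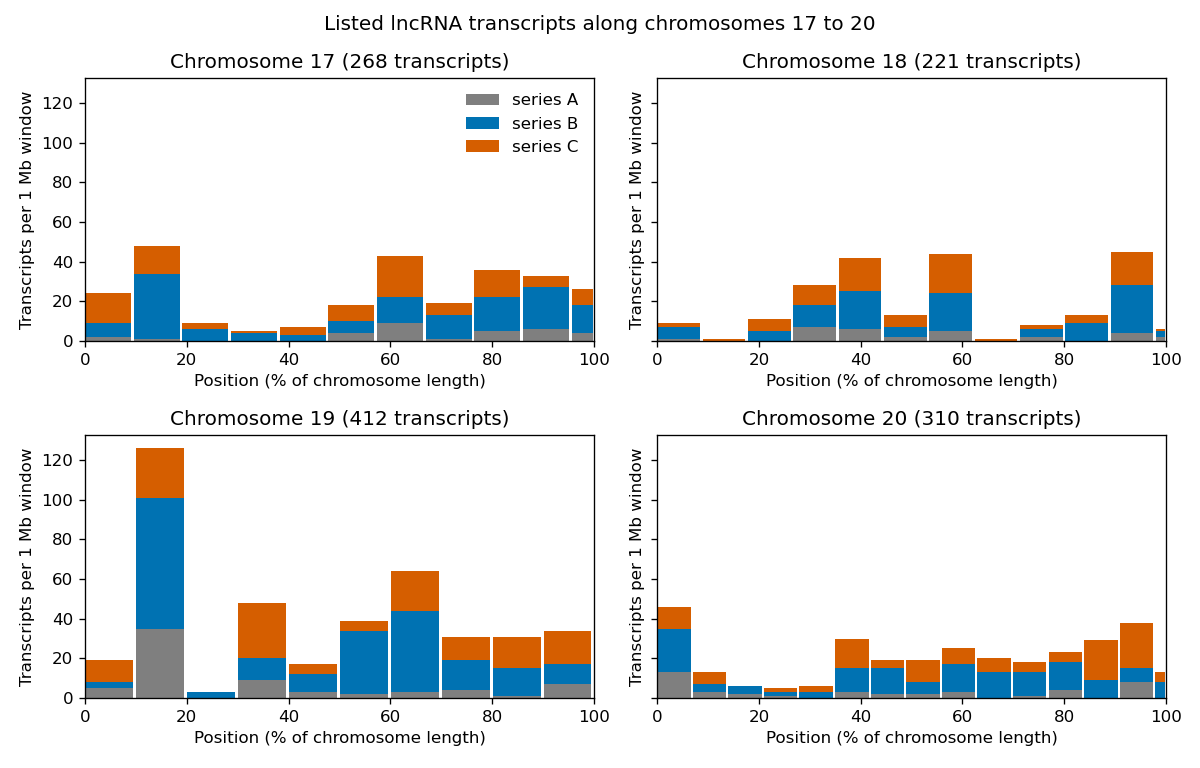
Number of listed lncRNA transcripts in each window of 1 Mb along chromosomes 17 to 20, with position as a percent of chromosome length and colours for the 3 numbering series of the identifiers (the last window of a chromosome is shorter). A single window of chromosome 19 holds 126 transcripts, while the fullest windows of chromosomes 17, 18 and 20 hold 48, 45 and 46.

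The crowding on chromosome 19 was centred on 1 stretch. Between 1455680 and 1723283, a span of 267.604 kb, 116 transcripts followed each other with gaps under 5 kb. No other chain of the table had as many, the next having 94. Its transcripts held 44.2% of the listed WRR reads of chromosome 19 and 40.5% of the XH reads. Of the other chromosomes, the longest chain had 26 transcripts on chromosome 17 (1144853 to 1186227), 26 on chromosome 20 (13347535 to 13396525) and 19 on chromosome 18 (10318278 to 10347535).

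Most members were of low abundance in both libraries. Abundance is given as RPKM, the reads per kilobase of transcript and per M reads of the library. The median was 3.11 RPKM for WRR and 3.67 RPKM for XH, beside 2.65 and 4.48 RPKM over the whole table. By the median, the members were therefore somewhat higher in WRR and somewhat lower in XH than the whole table. By chromosome the median in WRR ranged only from 2.85 (chromosome 18) to 3.21 RPKM (chromosome 17), and in XH from 3.37 (chromosome 19) to 4.09 RPKM (chromosome 20). At least 10 RPKM was reached by 117 members in WRR and 200 in XH, or 9.66% and 16.5%. Over the whole table the shares were 11.2% and 20.7%. Only 3 of the 1211 members in WRR and 4 in XH reached 100 RPKM, against 135 and 143 of all 21993 transcripts.

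Reads per transcript were few, which limits single ratios. The members held 74047 reads in WRR and 82636 in XH, with a median of 24 reads per transcript in each library. Scaled to the library totals, the WRR reads were 0.732 times those of XH, with an exact 95% interval of 0.725 to 0.739. This interval and those that follow are Clopper-Pearson intervals of the read counts. They cover counting error only, and without molecular identifiers several reads may be copies of 1 molecule. The same ratio was 0.754 on chromosome 17, 0.630 on chromosome 18, 0.794 on chromosome 19 and 0.767 on chromosome 20, beside 0.801 for the whole table. On chromosome 18 the 10 most-read transcripts took 45.6% of the WRR reads and 49.3% of the XH reads. On chromosome 19 that share was 25.4% in WRR and 26.1% in XH, so that its summed reads depended less on a few transcripts. The 10 most-read of all 21993 transcripts took 29.7% of the WRR reads and 11.3% of the XH reads.

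Chromosome 20 carried the most abundant member. It lay at 5869977 to 5871314, was 375 bases long within a wider interval, and had 368 RPKM for WRR and 317 RPKM for XH. The 1325-base transcript at 5834980 to 5837857, in the same stretch, had 114 RPKM for WRR and 60.5 RPKM for XH, a ratio of 1.89 (1.72 to 2.08). These 2 intervals were the only members of chromosome 20 at 100 RPKM or more. The next, at 8474161 to 8475034, had 21.7 RPKM for WRR and 60.2 RPKM for XH and was thus 2.78-fold higher in XH (2.32 to 3.33).

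On chromosome 17 the leading transcript, 680 bases at 6218280 to 6218959, had 113 RPKM for WRR and 135 RPKM for XH. The 2140-base transcript at 6088332 to 6091443 had 75.8 RPKM for WRR and 119 RPKM for XH, from 1532 and 1957 reads. The 2829-base transcript at 8778348 to 8781176 had 26.6 RPKM for WRR and 48.1 RPKM for XH. All 3 were higher in XH as deposited, by less than 2-fold, and all 3 turned to WRR when ratios were centred on the median of all transcripts.

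On chromosome 18 the most abundant transcript was short, 238 bases at 9456141 to 9456378, with 81.0 RPKM for WRR and 61.5 RPKM for XH. The 245-base transcript at 4200687 to 4200931 had 29.8 RPKM for WRR and 104 RPKM for XH, 3.48-fold higher in XH (2.63 to 4.64). The transcript of 1772 bases at 11013615 to 11015386 had 30.1 RPKM for WRR and 69.1 RPKM for XH, or 2.29-fold higher in XH (2.06 to 2.56). The first thus leaned to WRR and the other two to XH.

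Chromosome 19, for all its transcripts, had none at 100 RPKM in either library. Its highest was 385 bases at 7219392 to 7219776, with 56.1 RPKM for WRR and 79.8 RPKM for XH. Near its end lay a neighbouring pair. The 347-base transcript at 9183460 to 9183806 had 23.2 RPKM for WRR and 77.7 RPKM for XH, 3.35-fold higher in XH (2.56 to 4.42). A 207-base transcript at 9184096 to 9184302 had 27.6 RPKM for WRR and 54.5 RPKM for XH, 1.97-fold higher in XH (1.39 to 2.82).

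**Figure D2:**
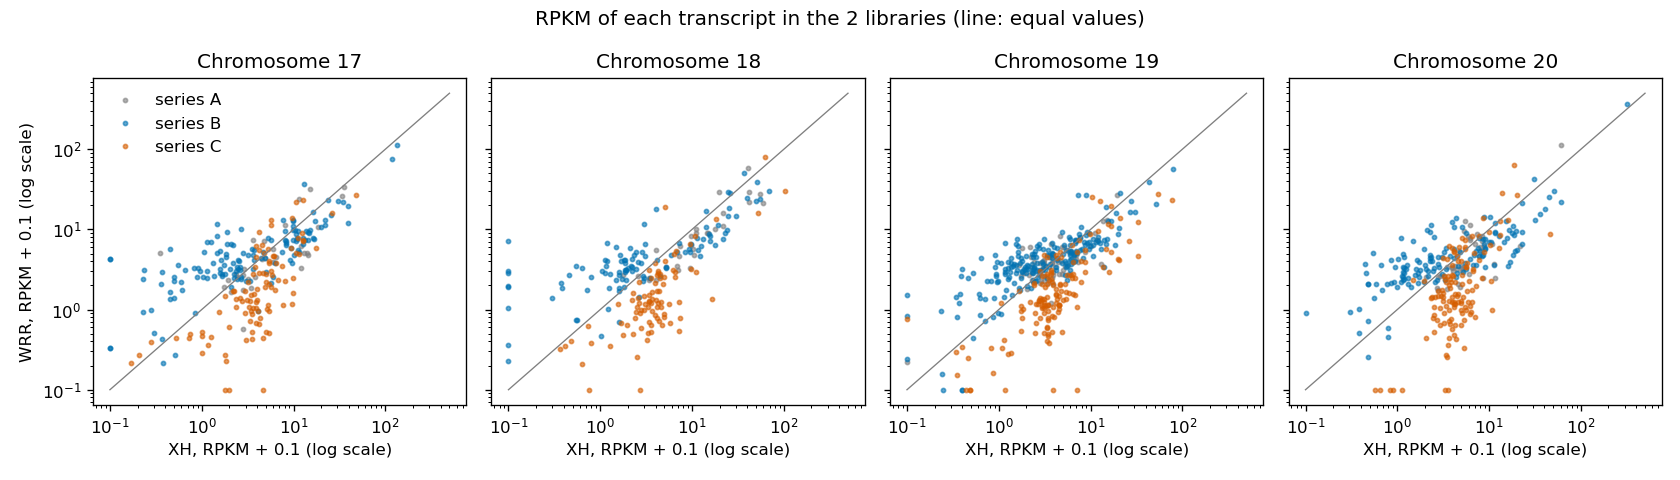
RPKM plus 0.1 of each member in the XH library (horizontal, log scale) and the WRR library (vertical, log scale), one panel per chromosome, with points coloured by numbering series and a line at equal values. Most points lie below 10 RPKM, and the most abundant member is on chromosome 20 at 317 RPKM in XH and 368 RPKM in WRR.

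The comparison of interest in this study is that of the fast-growing with the slow-growing strain. It is given as the log2 ratio of WRR over XH, with 0.1 RPKM added to both values, and is positive where WRR is higher. The added 0.1 understates the change of scarce transcripts. Ratios were read for the 1179 members whose higher library had at least 0.5 RPKM, 258 on chromosome 17, 216 on chromosome 18, 398 on chromosome 19 and 307 on chromosome 20. The other members enter no count of ratios.

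As deposited, the median member was lower in WRR than in XH, but less so than the median of the rest of the table. Their median log2 ratio was -0.40 (95% interval from order statistics -0.47 to -0.30), against -0.94 over all other transcripts. Summed reads gave the opposite order, with a ratio of 0.732 for the members and 0.804 for all other transcripts. These sums rest in part on few transcripts. The 10 most-read of all other transcripts held 30.9% of their WRR reads but 11.8% of their XH reads. Among the members the 10 most-read held 16.5% and 17.4%. Transcripts are not replicates, and the intervals of the medians do not cover birds or libraries. They also take transcripts as independent, while close neighbours had similar ratios (given below), so they may be too narrow. Chromosome 18 had the lowest median, -0.62 (-0.81 to -0.45), and chromosome 19 the highest, -0.23 (-0.37 to -0.082). Without its chain of 116 transcripts chromosome 19 lay at -0.39 (-0.51 to -0.25). Chromosome 17 lay at -0.39 (-0.56 to -0.15) and chromosome 20 at -0.49 (-0.65 to -0.28). The intervals of chromosomes 18 and 19 did not overlap, and every other pair did, but without that chain these overlapped too. The sign depended on the scaling. With the overall median of -0.92 subtracted, the 4 medians were 0.52, 0.29, 0.68 and 0.43 for chromosomes 17, 18, 19 and 20.

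As a group, these chromosomes had a median between those of groups of larger and of smaller ones. Chromosomes 1 to 5 had a median of -1.05, chromosomes 11 to 15 of -0.73, and chromosome 16 with chromosomes 21 to 28 of -0.26. Single chromosomes did not all follow this order. Chromosome 18, at -0.62, lay below the larger chromosome 13, at -0.50, and the smallest, chromosome 16, lay at -1.03. Among the 28 autosomes ordered from the highest median down, chromosome 19 was at rank 4, chromosome 17 at rank 8, chromosome 20 at rank 10 and chromosome 18 at rank 15. Each of the 4 thus lay above the median of the whole table.

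At least 2-fold higher in WRR were 195 of the 1179 members, or 16.5%, where the share over the whole table was 9.45%. At least 2-fold higher in XH were 343 members, or 29.1%, where the share over the whole table was 46.9%. The other 641 lay within 2-fold. With that median subtracted, the counts turned round, to 420 members higher in WRR (35.6%, against 22.3% over the whole table) and 131 higher in XH (11.1%, against 20.3%). Under either scaling the members thus had a larger share on the WRR side and a smaller share on the XH side than the whole table. By chromosome, as deposited, the WRR side held 52, 34, 61 and 48 members and the XH side 71, 77, 100 and 95 on chromosomes 17, 18, 19 and 20. Of those past 2-fold, the exact interval of the read ratio left out 1 for 161 on the WRR side (13.7%, against 7.64% over the whole table). On the XH side it did so for 322 (27.3%, against 44.9%).

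The ratio also followed the identifiers of the transcripts. Their numbers form 3 series. Series A runs up to number 3658 in no order of chromosomes, series B from 3659 to 11941 and series C from 11942, each of the latter running once through the chromosomes. The sources used here do not state how the series came about. Of the members, 14.2% were in series A, 48.6% in series B and 37.2% in series C, against 16.6%, 35.1% and 48.3% over the whole table. The members thus held more of series B and less of series C.

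Within series B the median member was higher in WRR, with a log2 ratio of 0.38 (0.25 to 0.47), against 0.057 for all of series B. In series C the median member was lower, with -1.37 (-1.48 to -1.20), against -1.64 for all of series C. In series A the median was -0.28 (-0.45 to -0.19), against -0.56 for all of series A, and this one turns positive when 0.92 is added by centring. In each series the median of the members thus lay above that of the series as a whole. Summed reads, scaled to the library totals, put series B on the other side of equality. Their ratio was 0.778 (0.767 to 0.789) for its members and 0.868 for all of series B. In series A it was 0.775, against 0.977, and in series C 0.568, against 0.466. At least 2-fold higher in WRR were 177 of 572 in series B (30.9%, against 23.6% for the series), 9 of 171 in series A (5.26%, against 5.15%) and 9 of 436 in series C (2.06%, against 0.764%). At least 2-fold higher in XH were 50 in series B (8.74%, against 15.9%), 20 in series A (11.7%, against 26.6%) and 273 in series C (62.6%, against 76.1%). If all other transcripts are weighted to the members' mix of series, their median becomes -0.72. That value lies between their own -0.94 and the members' -0.40.

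The order of the series was the same on each chromosome. In series B the medians were 0.37, 0.43, 0.34 and 0.45 on chromosomes 17, 18, 19 and 20, and in series C -1.16, -1.48, -1.40 and -1.42. In series A they were -0.24, -0.62, -0.18 and -0.35. Chromosome 18 in series A was the one case below its series as a whole, by 0.065. The 29 series A transcripts of chromosome 18 were also abundant, with medians of 6.30 RPKM for WRR and 10.1 RPKM for XH. None of these 29 passed 2-fold on the WRR side, against 5.15% of all of series A. On the XH side 4 did, or 13.8%, against 26.6% of all of series A.

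**Figure D3:**
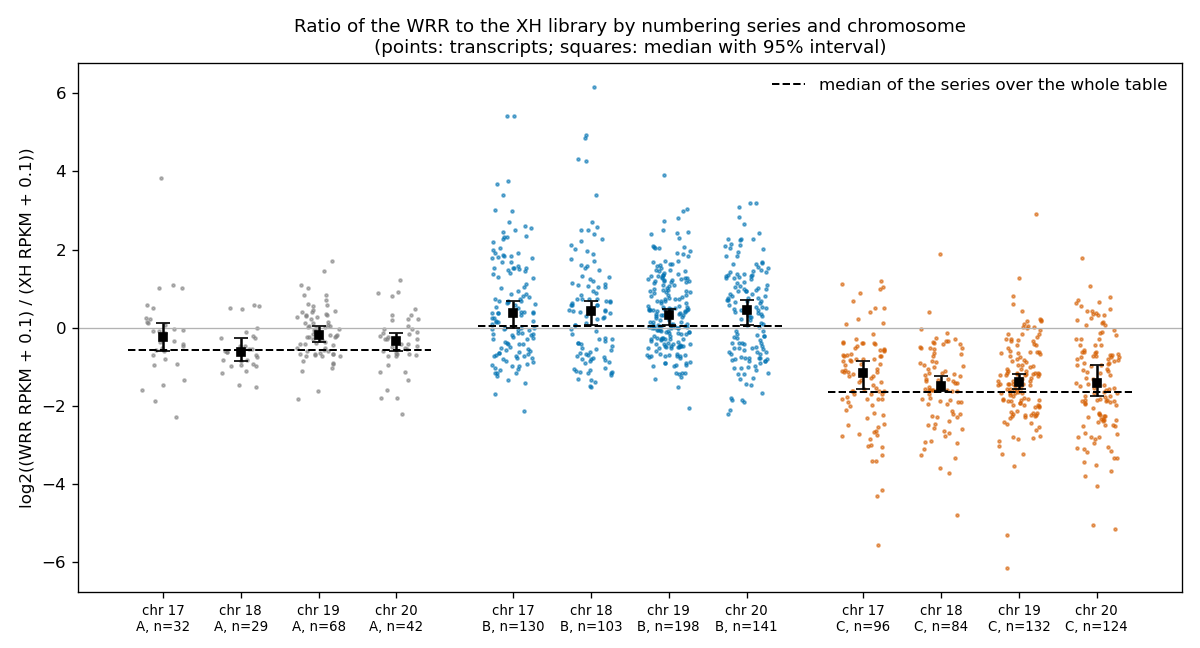
Log2 ratio of WRR over XH RPKM (0.1 added) of single members, grouped by numbering series and chromosome, with squares and bars for the median and its 95% interval and dashed lines for the median of each series over the whole table. As deposited, the medians of series B lie above 0 and those of series C below it on each chromosome. Centring on the median of all transcripts adds 0.92 to each value.

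Members also lay on the other side of 0 from the median of their series. In series B the lower quartile lay at -0.46, against -0.71 for all of series B. Of its 572 members past the filter, 118 had a read ratio whose interval lay below 1. Over the whole series these were 2119 of 7508, a larger share. The single transcripts named next were picked, after values were seen, for lying far from the median of their series. In series C on chromosome 20 the 542-base transcript at 7217328 to 7217869 had 63.3 RPKM for WRR and 18.4 RPKM for XH, a ratio of 3.44 (2.67 to 4.47). Another of series C, 573 bases on chromosome 18 at 10669479 to 10670051, had 18.7 RPKM for WRR and 4.98 RPKM for XH, a ratio of 3.75 (2.35 to 6.25). Both had over 20 reads in each library. In series B, 2 adjoining transcripts of chromosome 20 went to XH. The one at 6258405 to 6259337 had 34 reads in WRR and 122 in XH, or 4.39-fold higher in XH (2.98 to 6.63). The one at 6259496 to 6260540 had 47 and 145 reads, 3.78-fold higher in XH (2.70 to 5.37). A second adjoining pair in series B behaved alike, at chromosome 20, 11595469 to 11595951 and 11596052 to 11596477. Its first transcript was 3.62-fold (2.28 to 5.95) and its second 3.61-fold (2.17 to 6.24) higher in XH.

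The ratio varied less with transcript length than with the series. In series B the median was 0.59 for the 108 members under 500 bases, 0.45 for the 408 of 500 to below 2000 bases and -0.36 (-0.71 to -0.10) for the 56 longer ones. All other transcripts of series B had the same order, at 0.28, 0.05 and -0.67. The longest members of series B thus leaned to XH as deposited, by less than the 0.92 that centring adds. In series C the 3 medians were -1.58, -1.32 and -1.52, and in series A -0.36, -0.24 and -0.40, so no such order was seen there. The interval was longer than the transcript, which is called gapped here, for 75 members, or 6.19% (4.84% over the whole table). Gapped members past the filter had a median of 0.22 (-0.16 to 0.56), against -0.44 (-0.52 to -0.36) for the 1107 contiguous ones. Among all other transcripts the 2 medians were 0.03 and -0.98, so the contrast was not particular to the members. By series, gapped members lay at 0.45 in A, 0.84 in B and -0.41 in C, and contiguous ones at -0.36, 0.36 and -1.42.

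Along the chromosomes the ratio varied by window. Of the 48 windows of 1 Mb, 24 had under 20 transcripts and are thin. Among the other 24 the median ran from -1.64 to 0.24, and 2 were above 0. The fullest window of chromosome 17, from 1 to 2 Mb with 48 transcripts, had a median of -0.16, and that of chromosome 18, from 10 to 11 Mb with 45, had -0.38. The fullest of chromosome 20, its first Mb with 46 transcripts, had -0.28, and that of chromosome 19, from 1 to 2 Mb with 126, had 0.08. All 4 lay above the whole-table median of -0.92. The windows with the most summed RPKM were from 6 to 7 Mb on chromosome 17 (438 in WRR and 502 in XH), from 6 to 7 Mb on chromosome 18 (296 and 412), from 1 to 2 Mb on chromosome 19 (448 and 460) and from 5 to 6 Mb on chromosome 20 (579 and 508). Only on chromosome 20 was that sum higher in WRR as deposited. There the 2 abundant transcripts described above gave 368 and 114 of the WRR sum, and 317 and 60.5 of the XH sum. The median log2 ratio of that window was -0.04 (-1.09 to 0.69).

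**Figure D4:**
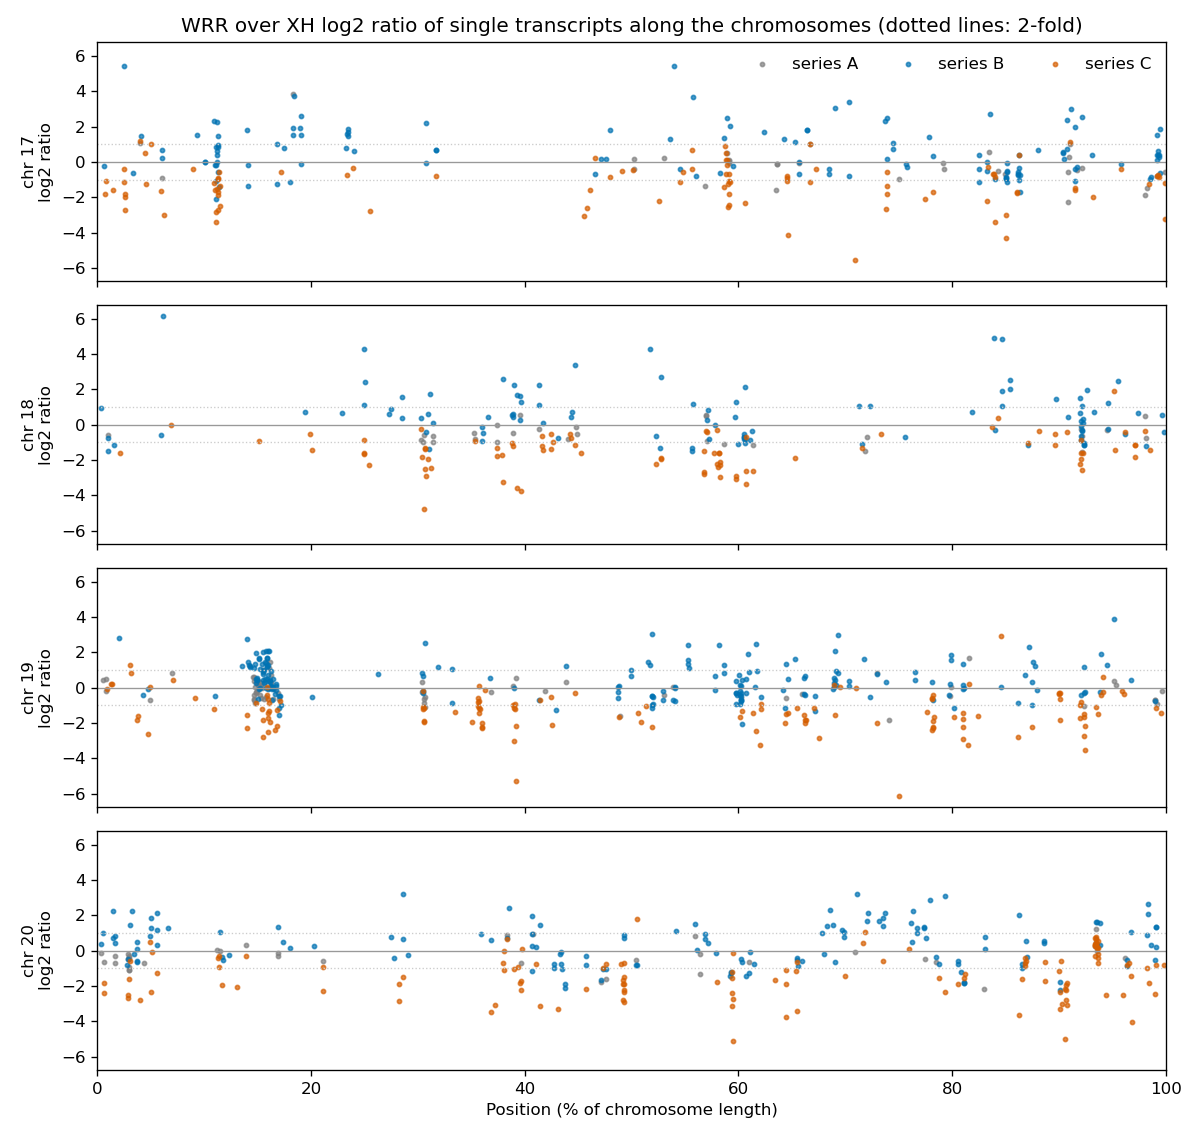
Log2 ratio of WRR over XH RPKM (0.1 added) of single members along chromosomes 17 to 20, with position as a percent of chromosome length, colours for the numbering series and dotted lines at 2-fold. The medians of the 24 windows with at least 20 transcripts run from -1.64 to 0.24 as deposited, with 0.92 to be added when centred on the median of all transcripts.

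The chain of 116 transcripts on chromosome 19 was nearly balanced between the libraries as deposited, with 0.92 to be added to its log2 ratios when centred. Of its transcripts 109 passed the filter, with a median log2 ratio of 0.05 (-0.06 to 0.31). Past 2-fold lay 21 on the WRR side and 13 on the XH side, or 19.3% and 11.9%, beside 9.45% and 46.9% over the whole table. Centred, the counts were 53 and 5 of the 109, beside 22.3% and 20.3% over the whole table. Its summed reads were 9642 in WRR and 9091 in XH, which scaled to the library totals is a ratio of 0.866 (0.842 to 0.892). The median over transcripts and the ratio of summed reads thus fell on different sides of equality, the sum giving most weight to the transcripts with the most reads. Of those past the filter, series A gave 34 transcripts with a median of -0.01, series B 58 with 0.46 and series C 17 with -1.35.

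The chain held very long transcripts. The 10207-base transcript at 1646322 to 1656528 had 1210 reads in WRR and 1058 in XH, or 12.6 and 13.4 RPKM. The 11411-base transcript at 1680404 to 1691814 had 975 and 972 reads, or 9.05 and 11.04 RPKM. The 15161-base transcript at 1704545 to 1719705, the longest of chromosome 19, had 549 and 750 reads, or 3.83 and 6.41 RPKM. All 3 differed between the libraries by less than 2-fold. Some short transcripts elsewhere in the chain differed more. The 364-base transcript at 1579834 to 1580197 had 22 reads in WRR and 4 in XH, and the 538-base transcript at 1544648 to 1545185 had 2 and 14. At 1551222 to 1551827 a transcript of series B had 22 and 4 reads, and the series C transcript that overlaps it, at 1551537 to 1552150, had 4 and 13. This overlapping pair thus differed in direction. So did many other overlapping pairs of the chain, while others had the same sign in both transcripts.

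The places that follow were picked after their values had been seen. On chromosome 17, 4 successive transcripts between 1911337 and 1922279 each lay past 2-fold on the WRR side. Their reads were 19, 21, 48 and 28 in WRR and 5, 4, 2 and 1 in XH, in the order of position. The summed ratio was 7.90 (4.35 to 15.7). The third of them, 1026 bases at 1915381 to 1921223, had 4.95 RPKM for WRR and 0.253 RPKM for XH, the highest log2 ratio among members of chromosome 17 with reads in both libraries and at least 20 in one. Its fold was 19.6, with a wide interval of 5.14 to 167. It is also in series A, where 9 members in all were at least 2-fold higher in WRR. Coverage of its length was 99.9% for WRR and 13.7% for XH.

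On the same chromosome a short stretch leaned to XH as deposited, by about as much as the median of the whole table. The transcripts at 8778348 to 8781176 and 8781420 to 8783390 had 710 and 368 reads in WRR and 1050 and 596 in XH. The 629-base transcript at 8781354 to 8781982 began between them and shared 563 of its bases with the interval of the second. It had 2 reads in WRR and 22 in XH, or 13.5-fold higher in XH (3.31 to 118). The 2 abundant transcripts differed by less than 2-fold, and when centred lay at 0.06 and -0.07 on the log2 scale. The 514-base transcript at 1158146 to 1158659 also had few reads in WRR, with 2 against 21, and was 12.9-fold higher in XH (3.14 to 113). The longest transcript of chromosome 17, 5662 bases at 1054658 to 1060319, had 23.2 RPKM for WRR and 23.6 RPKM for XH, and the interval of its ratio, 0.983 (0.904 to 1.07), included 1.

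Chromosome 18 held 1 short stretch with many of its reads. Between 6392136 and 6425256, 8 transcripts had 4530 reads in WRR and 4542 in XH, giving a ratio of 0.815 (0.782 to 0.849). None of the 8 reached 2-fold as deposited, against 9.45% in WRR and 46.9% in XH over the whole table. Centred, 4 of the 8 did in WRR, against 22.3% over the whole table. The longest member of all 4 chromosomes lay there, 15201 bases at 6409974 to 6425256, with 1231 reads in WRR and 1768 in XH, or 8.58 and 15.1 RPKM. It was 1.76-fold higher in XH (1.63 to 1.89), but turned to WRR by 0.11 on the log2 scale when centred on all transcripts. At the other end, the 1039-base transcript at 6392136 to 6393174 had 567 and 328 reads, or 57.8 RPKM for WRR and 40.9 RPKM for XH. The ends of this stretch thus leaned in opposite directions as deposited.

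Directly beyond it the reads were few and leaned to XH. Between 6436124 and 6540461 lay 10 transcripts with 90 reads in WRR and 230 in XH, 3.13-fold higher in XH (2.44 to 4.04). Of these, 8 were at least 2-fold higher in XH, and all 8 were among the 9 of series C, where 76.1% of the whole table passed 2-fold in XH. When centred, 5 did, where 39.2% of all of series C did. The one transcript of series B, 477 bases, spans the whole stretch with its gapped interval and had 18 and 15 reads. Without exon positions it cannot be said whether its reads and those of the others fall on the same bases.

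Further along chromosome 18, between 9417433 and 9586056, 6 of 8 transcripts lay past 2-fold on the WRR side. The 8 together had 346 reads in WRR and 153 in XH, giving a ratio of 1.85 (1.52 to 2.25). Among the 6, the 482-base transcript at 9579551 to 9580032 had 30 and 4 reads, a ratio of 6.13 (2.16 to 23.9). The abundant 238-base transcript described above lay in this stretch and was within 2-fold, and it alone gave 182 of the WRR reads and 113 of the XH reads. All 6 transcripts on the WRR side were among the 7 of series B, of which 23.6% lay past 2-fold on that side over the whole table. The window from 9 to 10 Mb has 13 transcripts and is thin. The lowest log2 ratio of chromosome 18, with reads in both libraries and at least 20 in one, was that of the 336-base transcript at 4403198 to 4403533, with 4 reads in WRR and 42 in XH, 12.9-fold higher in XH (4.66 to 49.3).

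On chromosome 19, the largest ratios, by the same limit on reads, lay outside the chain and rested on few reads. The 861-base transcript at 6923540 to 6924400 had 25 reads in WRR and 2 in XH, giving a ratio of 10.2 (2.55 to 89.0). Likewise, the 486-base transcript at 201572 to 202057 had 20 and 2 reads, a ratio of 8.17 (1.98 to 72.1). At the other end, 6194030 to 6194782 had 3 and 28 reads, 11.4-fold higher in XH (3.53 to 58.7). The transcript at 8134293 to 8135041 had 2 and 20 reads, 12.2-fold higher in XH (2.97 to 108). The first 2 are in series B and the last 2 in series C. A pair of long gapped intervals, from 6716553 and from 6718286 to nearly the same end at 6772436 and 6772438, overlapped there. The series C entry had 13 reads in WRR and 92 in XH, and the series B entry 2 and 0, too few to read a direction.

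Chromosome 20 had the widest range of medians among windows with at least 20 transcripts. The window from 12 to 13 Mb, with 29 transcripts, had a median of -1.64 (-2.21 to -0.65), and the next, from 13 to 14 Mb with 38, had 0.24 (-0.19 to 0.35). These were the lowest and the highest such medians on the 4 chromosomes. The first had 9 transcripts of series B and 20 of series C, with medians of -0.39 and -1.91. The second had 8 of series A, 7 of series B and 23 of series C, with medians of 0.24, 1.07 and 0.16. The step between the windows was thus present within series B and within series C, though series B had under 20 transcripts in either. The 1247-base transcript at 12340844 to 12342090 had the lowest log2 ratio of the chromosome among members with reads in both libraries and at least 20 in one, with 2 reads in WRR and 32 in XH, 19.6-fold higher in XH (4.996 to 169).

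Of the 38 transcripts from 13 to 14 Mb, 26 formed the chain at 13347535 to 13396525. In it, 21 of 26 had a log2 ratio above 0, with a median of 0.32 (0.19 to 0.48), and its reads summed to 2185 in WRR and 1439 in XH, giving a ratio of 1.24 (1.16 to 1.33). Of its transcripts 17 were in series C, with a median of 0.32, where the whole of series C had -1.64. As deposited, 3 of 26 reached 2-fold in WRR, or 11.5%, near the 9.45% of the whole table, and 0 in XH, against 46.9%. Centred on the median of all transcripts, 21 of 26 did in WRR, against 22.3%, and 0 in XH, against 20.3%. The centred median was 1.24. The 975-base transcript at 13369350 to 13370324 was one of these, with 115 reads in WRR and 40 in XH, giving a ratio of 2.35 (1.63 to 3.46). The longest of the chain, 4665 bases at 13382834 to 13387498, had 232 and 166 reads, or 5.27 RPKM for WRR and 4.61 RPKM for XH. The chain thus leaned to WRR under both scalings, and the size of its differences depended on the scaling. It held 12.0% of the listed WRR reads of chromosome 20 and 7.41% of the XH reads.

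A second stretch of chromosome 20 had larger ratios on the WRR side. The window from 10 to 11 Mb, which is thin with 18 transcripts, had 11 past 2-fold on the WRR side and 1 on the XH side. They had 1206 reads in WRR and 617 in XH, giving a ratio of 1.60 (1.45 to 1.76). Among the 11, the 576-base transcript at 10168456 to 10169031 had 27 and 2 reads, a ratio of 11.03 (2.77 to 95.7). The transcript of 669 bases at 10456458 to 10457204 had 86 reads in WRR and 22 in XH, and the series C transcript at 10273219 to 10273967 had 202 and 79, a ratio of 2.09 (1.60 to 2.75). Of the 18, 12 were in series B, where 23.6% of the whole table lay past 2-fold on the WRR side.

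Nearer the middle of chromosome 20, 2 chains leaned to XH. Most of their transcripts were in series C, of which 76.1% lay past 2-fold on the XH side over the whole table, so their counts are set against that share. Between 7035520 and 7055601, 8 of 11 transcripts were at least 2-fold higher in XH, with 158 reads in WRR and 401 in XH in all, 3.11-fold higher in XH (2.58 to 3.76). When centred, 4 of the 11 passed 2-fold on the XH side and 2 on the WRR side. Centred, 39.2% of all of series C passed 2-fold on the XH side. A 3314-base transcript at 7051394 to 7054707 gave 51 and 164 of these reads. The 2 series B transcripts of this chain, by contrast, had 16 and 24 reads in WRR and 7 and 12 in XH. Between 8494296 and 8513380, 6 of 7 transcripts, all 7 of them in series C, were at least 2-fold higher in XH. When centred, 4 of the 7 remained so, beside the 39.2% of all of series C. This chain had 72 reads in WRR and 212 in XH, 3.60-fold higher in XH (2.75 to 4.78).

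Reads in a single library were seen for 39 members. A dash was read as 0 reads, and folds against it were set against a floor of 3 reads per library. WRR had 21 dashes, 18 of them in series C, and XH had 18, of which 16 were in series B. These are 1.73% and 1.49% of the members, beside 2.47% and 1.35% of the whole table, whose 544 dashes in WRR and 296 in XH included 504 in series C and 254 in series B. The members thus resembled the whole table in this split. The median read count in the other library was 5 for dashes in WRR and 8.5 for dashes in XH, so most of these transcripts had few reads in either library. The dash in WRR with the most reads in XH was the 904-base transcript at chromosome 20, 8512477 to 8513380, with 24 reads, at least 9.79-fold higher in XH by the floor and 7.37-fold by the exact lower bound. On chromosome 19 it was 3914911 to 3915658, with 22 reads in XH, at least 8.98-fold higher there by the floor and 6.71-fold by the exact bound. On chromosome 17, 7410417 to 7411008 had 21 reads in XH, at least 8.57-fold higher by the floor and 6.37-fold by the exact bound. Coverage in XH was 86.9% on chromosome 20, 99.2% on chromosome 19 and 82.6% on chromosome 17.

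Dashes in XH were of like size. The transcript at chromosome 19, 9501006 to 9502661, had 22 reads in WRR, at least 5.99-fold higher there by the floor and 4.48-fold by the exact bound, but its reads covered 17.9% of its 1656 bases. On chromosome 18, 9494906 to 9495628 had 19 reads in WRR, at least 5.17-fold higher by the floor and 3.81-fold by the exact bound, and lay in the stretch from 9417433 described above. On chromosome 17, 5638900 to 5639385 likewise had 19 reads in WRR. On chromosome 20 the one dash in XH had 4 reads in WRR. Of these 39 members, 26 had an interval that overlapped that of another listed transcript, where 254 of all 1211 members did.

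Overlapping intervals mixed the series. Of 1207 members with another before them on the chromosome, 147 overlapped an earlier one, against 1807 of 20998 over the whole table. By chromosome these were 35 of 267 on 17, 35 of 220 on 18, 60 of 411 on 19 and 17 of 309 on 20. A total of 147 pairs overlapped, which involved 254 members, or 20.97%. Of these pairs 114 joined a series B with a series C transcript. In the 89 such pairs with both past the filter, the series B member was the higher in WRR in 82, and the medians were 0.38 for series B and -1.53 for series C. Members in no overlap had medians of 0.37 in series B and -1.30 in series C, so this contrast was not particular to overlaps. In 17 of the 89 pairs one member was at least 2-fold higher in WRR and the other at least 2-fold higher in XH. Thus both directions were found among intervals that overlap, but some of these overlaps were small. One such pair on chromosome 19, at 1398034 and 1397320, shared 69 bases. In the 3 of the 89 pairs that overlapped by at least 80% of the longer interval, both members had the same sign. Since the table has no strand, reads of overlapping or antisense transcripts cannot be told apart here. Members in an overlap had fewer reads, with medians of 12 in WRR and 14 in XH, against 27 and 26 for the others.

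Neighbours within a series had similar ratios where they were close. Among successive members of series B under 5 kb apart, Spearman's rho of the log2 ratios was 0.52 (238 pairs), and in series C it was 0.49 (169 pairs). In series A it was 0.35 (59 pairs). At 50 kb or more apart it was 0.014 in series B (184 pairs), 0.045 in series C (156 pairs) and -0.11 in series A (79 pairs). These values describe transcripts of the same 2 libraries. Whether close neighbours are parts of 1 longer RNA was not tested.

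Coverage, the percent of a transcript's length under reads, followed the series as the ratio did. In series B the median was 91.7% in WRR and 71.2% in XH, against 92.3% and 80.2% for all of series B. In series C it was 58.6% in WRR and 89.5% in XH, against 57.1% and 91.3%. In series A both were alike, at 85.7% and 87.8%, against 84.1% and 89.9%. The split by series was thus found over the whole table. For all members together the medians were 85.2% in WRR and 84.9% in XH, against 79.9% and 89.5% for the whole table. Coverage rises with the read count, so scarce transcripts are also thinly covered. With at least 20 reads in both libraries, which 539 members had, the medians were 95.4% and 93.7% in series B, 85.9% and 93.98% in series C, and 85.7% and 89.0% in series A. The gap between the libraries was thus smaller among well-read members in series B and C, but not in series A.

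**Figure D5:**
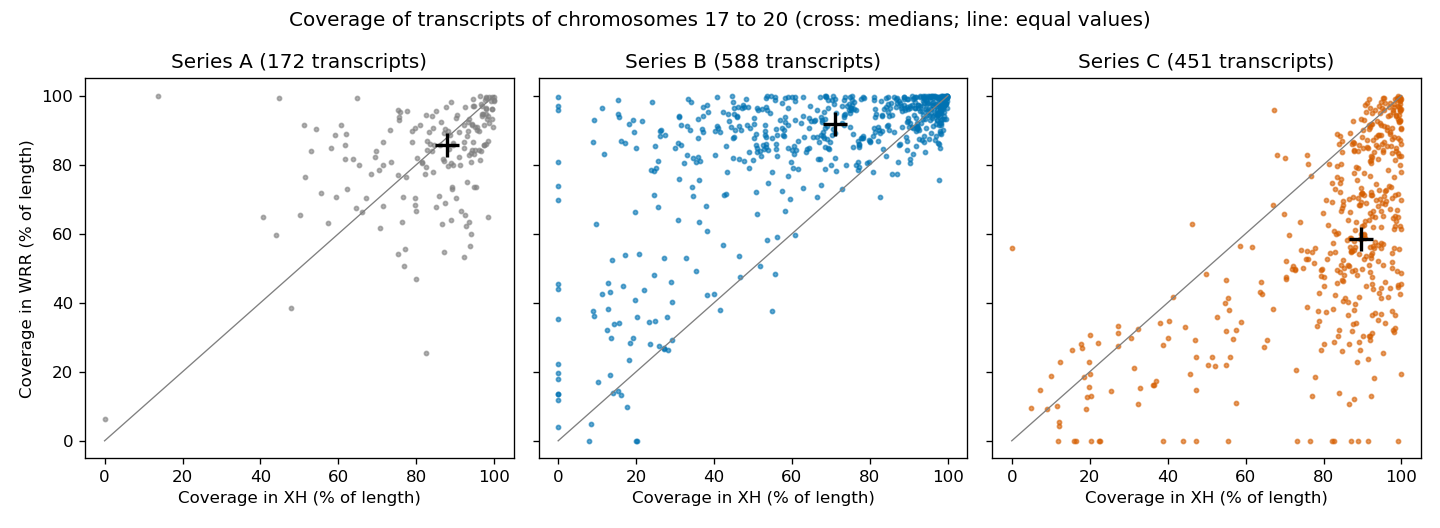
Percent of transcript length covered by reads in XH (horizontal) and WRR (vertical) for members of series A, B and C, with a cross at the medians and a line at equal values. Series B lies mostly above the line, with medians of 91.7% in WRR and 71.2% in XH, and series C below it, with 58.6% and 89.5%.

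Some well-read members were covered in part. Of the 539, 16 were covered to under 50% in WRR, 16 in XH and 5 in both. The counts of this paragraph were not taken over the whole table, so whether they are particular to the members was not tested. The 12453-base transcript at chromosome 18, 3403855 to 3416307, had 30 reads in WRR and 112 in XH, over 10.8% and 32.5% of its length. The 1471-base transcript at 6393300 to 6394770 on the same chromosome had 73 and 75 reads over 28.4% and 22.1%. In both transcripts the reads covered only a part of the listed length. For the 12453-base transcript, however, 30 reads in WRR are too few to cover 50% of its length. Its WRR coverage therefore cannot show that reads keep to a part of it. Coverage was over 30 points higher in WRR for 23 of the 539 and in XH for 18. On chromosome 19 the 927-base transcript at 6077571 to 6078497 had 237 reads in WRR over 66.2% of its length and 52 in XH over 19.7%. On chromosome 20 the 2564-base transcript at 8286741 to 8289304 had 39 reads in WRR over 49.3% and 113 in XH over 98.9%. Of the 23 higher in WRR, 19 were in series B and 4 in series A, and of the 18 higher in XH, 10 were in series C and 8 in series A.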

How the data were processed

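Per the labels' protocols, RNA of 4 hens per strain was pooled and 1 library sequenced, so the groups WRR and XH have 1 sample each. The authors deposited 1 table, with counts of uniquely mapped reads, coverage (read as percent of transcript length) and RPKM per library, per the file headers. Per the submitters' processing notes, the build was galGal4 and the tools were Cufflinks 2.0.2 and TopHat2 2.0.8, without a stated role. The sources used here do not say how transcripts were assembled or judged non-coding. All 2383 listed RPKM values of the members followed from reads, length and library total within 0.001%. The smallest listed count was 1, so a dash was taken as 0 reads.

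Log2((WRR + 0.1) / (XH + 0.1)) was computed on RPKM for transcripts whose higher library reached 0.5 RPKM. Shares are over the whole table with the same rule. Folds of single transcripts are RPKM ratios without the added 0.1, with exact Clopper-Pearson 95% intervals. Per library the members held 74047 and 82636 reads, and the median count of 24 makes most single intervals wide. Density used the chromosome lengths of galGal4. The transcripts named for each chromosome are the 3 highest by mean RPKM, the 2 highest and 2 lowest ratios with reads in both libraries and at least 20 in the higher, the dash with the most reads in the other library in each direction (at least 10), and the longest. Members, lists and this rule were chosen with earlier results of these data known, and stretches, neighbours and overlaps were picked after values were seen. So were other single transcripts outside this rule, such as those far from the median of their series or with low or unequal coverage. Scalings, added constant, filter, dashes, gapped transcripts, series, overlaps and the longest chain were varied. The scripts (Python 3.11.15, pandas 2.3.3, NumPy 2.4.6, SciPy 1.17.1, matplotlib 3.10.9) were tested on simulated data. Genes near the members and sequences were not analysed here.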

Additional observations from a re-analysis of the deposited data

How the results depend on the processing

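The direction of the medians rested on the scaling and the series. Centred on the median of all transcripts, the median log2 ratio became 0.51 for the 4 chromosomes together and 0.52, 0.29, 0.68 and 0.43 for chromosomes 17, 18, 19 and 20, with 420 members past 2-fold on the WRR side and 131 on the XH side. Quantile normalization gave 0.38, then 0.42, 0.14, 0.57 and 0.32, with counts of 402 and 137. With the listed reads as library totals, the medians were -0.090, then -0.080, -0.31, 0.077 and -0.18, so that chromosome 19 alone turned. Within series A the median was -0.28, with counts of 9 in WRR and 20 in XH. Within series B it was 0.38, then 0.37, 0.43, 0.34 and 0.45 by chromosome, with 50 members higher in XH. Within series C it was -1.37, then -1.16, -1.48, -1.40 and -1.42, with 9 higher in WRR. Without the longest chain, a setting added after seeing the data, chromosome 19 went to -0.39. Of the 98 values of medians and counts under alternatives, 63 kept their direction and size, 16 reversed and 19 moved. Counts could move but not reverse, and those within 1 series could only fall, since fewer members entered. The 63 include all those with another added constant, with another filter, without dashes, without gapped transcripts and, also added after seeing the data, without overlapping transcripts. The cause was not tested. For the 39 named transcripts, 324 of 336 values kept their sign, and the 12 that did not, all under another scaling, came from transcripts within 2-fold. No paired analysis was possible because the 2 pools share no birds and have no replicates, and no library could be left out for the same reason. Depth limits single transcripts: with a median of 24 reads in each library, the exact interval left out 1 for 161 of the 195 members past 2-fold in WRR and 322 of the 343 in XH, which compares the 2 libraries only.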
